A study of Mus musculus with 12 samples.

Results

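The 10 genes described here are the core of the BCL2 family and 2 inhibitors of caspase activation, as transcribed in bone marrow derived macrophages (BMDM) of mice. They were chosen by symbol: the survival genes Bcl2, Bcl2l1 and Mcl1, the pore-forming effectors Bax and Bak1, the BH3-only genes Bcl2l11, Bid and Pmaip1, and the inhibitors Cflar and Xiap. All 10 were found among the 43280 genes of the expression table, and all 10 were among the 12086 genes tested, those with 1 or more CPM (reads of the gene scaled to the size of the library) in 2 or more libraries. The data came from 12 poly(A) RNA-seq libraries, 2 biological replicates for each of 6 conditions. Macrophages were grown with M-CSF from the marrow of C57BL6 wild-type (wt) mice or of mice without the myeloid receptor gene Treml4 (Treml4-/-), and were either left with the PBS vehicle (M0) or given lipopolysaccharide (LPS) at 100 ng/ml for 8 h (M1-8 h) or 12 h (M1-12 h). The Treml4-/- mice were a knockout line supplied by another laboratory, so that differences between the mouse lines other than Treml4 cannot be told apart from the genotype. The comparison of wt with Treml4-/- asked how the receptor shapes the macrophage transcriptome before and during LPS, and the comparisons with M0 asked what LPS itself changed.

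Mitochondrial apoptosis is decided by binding between the proteins of this family. BCL2, BCL-XL (the product of Bcl2l1) and MCL1 hold BAX and BAK in check, and BH3-only proteins such as BIM (Bcl2l11), BID and NOXA (Pmaip1) occupy the survival proteins or activate the effectors, which then perforate the outer mitochondrial membrane and release cytochrome c. Death receptors take another route through caspase-8, which the FLIP proteins encoded by Cflar block and which BID links to mitochondria, while XIAP binds and inhibits caspases. In macrophages, Toll-like receptor 4 signalling through NF-kB and interferon is known to raise several survival genes, and the balance of these proteins influences whether an LPS-exposed macrophage lives.

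Libraries held 48008751 to 58500792 reads, and 1 read was worth at most 0.0208 CPM. As a check of the labels, Treml4 had 198 to 663 reads in the wt libraries and 0 in the 6 Treml4-/- libraries. The 6 macrophage markers Csf1r, Cd68, Itgam, Mertk, Lyz2 and Emr1 (the table's symbol for Adgre1) were all detected in every library and summed to 20405 to 27472 CPM before LPS and 8461 to 11727 CPM after it. Neutrophil markers summed to 21.6 to 69.8 CPM before LPS, to 18.8 to 28.7 CPM after 8 h and to 6.50 to 6.83 CPM after 12 h, with Ly6g at or below 0.131 CPM. B cell, T cell and erythroid markers summed to at most 0.309 CPM, dendritic cell markers to at most 0.876 CPM and stromal markers to at most 5.34 CPM, with Alas2 at 0 reads in all libraries. The part of these levels in the results was not tested. Reads of mitochondrial genes took 0.517 to 0.836% of 11 libraries and 1.11% of Treml4-/- M1-8 h replicate 2. In bulk RNA, fewer cells of a type and less RNA per cell cannot be told apart.

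Every comparison with M0 depended on how libraries were scaled. Scaled to library size, the median gene tested changed by -0.72 on the log2 scale at 8 h and by -0.76 at 12 h. After scaling by the median of ratios, an alternative that centres each library on its typical gene, these medians were -0.01 and 0.00. Scaled to library size, the 10 genes had median changes of 0.46 at 8 h and 0.51 at 12 h, and under the median of ratios 1.25 and 1.36. Fold changes below are for CPM scaled to library size, on the log2(CPM + 1) scale, and for the 10 genes the value under the other scaling is given beside each change against M0. Change between 8 h and 12 h was little affected, the median of all genes being -0.06 under the first scaling and -0.02 under the second. A gene was called changed if its adjusted p was under 0.05 and it differed 1.4-fold or more. The p-values measure the spread between these libraries.

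Promoter sequence is shown for the genes that were called higher at both LPS times under both scalings described above, which were Bcl2l1, Cflar and Pmaip1. RefSeq (GRCm38.p6) gave windows for 9 of the 10 genes, and Pmaip1 is named only. The sequences are the 250 bases before the most upstream start site listed for each gene, 5′ to 3′ on the strand of the gene, in lower case with no part marked. The Bcl2l1 sequence is chr2:152831729-152831978 on the minus strand and the Cflar sequence is chr1:58711241-58711490 on the plus strand.
Bcl2l1: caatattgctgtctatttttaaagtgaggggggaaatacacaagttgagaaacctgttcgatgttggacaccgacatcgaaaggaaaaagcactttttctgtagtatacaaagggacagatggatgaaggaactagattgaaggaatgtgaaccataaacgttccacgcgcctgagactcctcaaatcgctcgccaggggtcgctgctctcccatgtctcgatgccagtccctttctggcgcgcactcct
Cflar: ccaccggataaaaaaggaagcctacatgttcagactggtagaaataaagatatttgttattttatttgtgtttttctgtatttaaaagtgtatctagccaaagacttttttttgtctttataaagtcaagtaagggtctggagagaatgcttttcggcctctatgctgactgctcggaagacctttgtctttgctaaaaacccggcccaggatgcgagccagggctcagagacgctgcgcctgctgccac
Binding of a factor to these windows was not measured.

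At 8 h of LPS, 5 of the 10 genes were called changed against M0 as a mean of both genotypes, 4 higher (Bcl2l1, Pmaip1, Cflar and Xiap) and 1 lower (Bax). Among all genes tested, 76.9% were called, 17.1% higher and 59.8% lower. At 12 h, 7 of the 10 were called, with Bcl2l1, Bak1, Bid, Pmaip1 and Cflar higher and Bax and Bcl2l11 lower, where 76.5% of all genes were called, 16.3% higher and 60.3% lower. Under median of ratios scaling, 8 genes at 8 h and 7 at 12 h were called, all of them higher, and of all genes 63% and 65.9% were called, 32% and 33.5% higher. Bax was then no longer called at either time, Bcl2l11 was called higher at 8 h and not called at 12 h, and Mcl1 was called higher at both times. The 8 h and 12 h comparisons share their M0 libraries. Within wt alone 5 genes were called at 8 h and 7 at 12 h (76.9% and 76.7% of all genes). Within Treml4-/- alone 6 and 7 were called (75.9% and 75.7%). These were not all the genes called in the mean. At 8 h, wt had Bak1 in place of Xiap, and Treml4-/- had Bid in addition. At 12 h, Treml4-/- had Mcl1 in place of Bak1. None of these genes was called for a difference of LPS effects between genotypes.

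**Figure D1:**
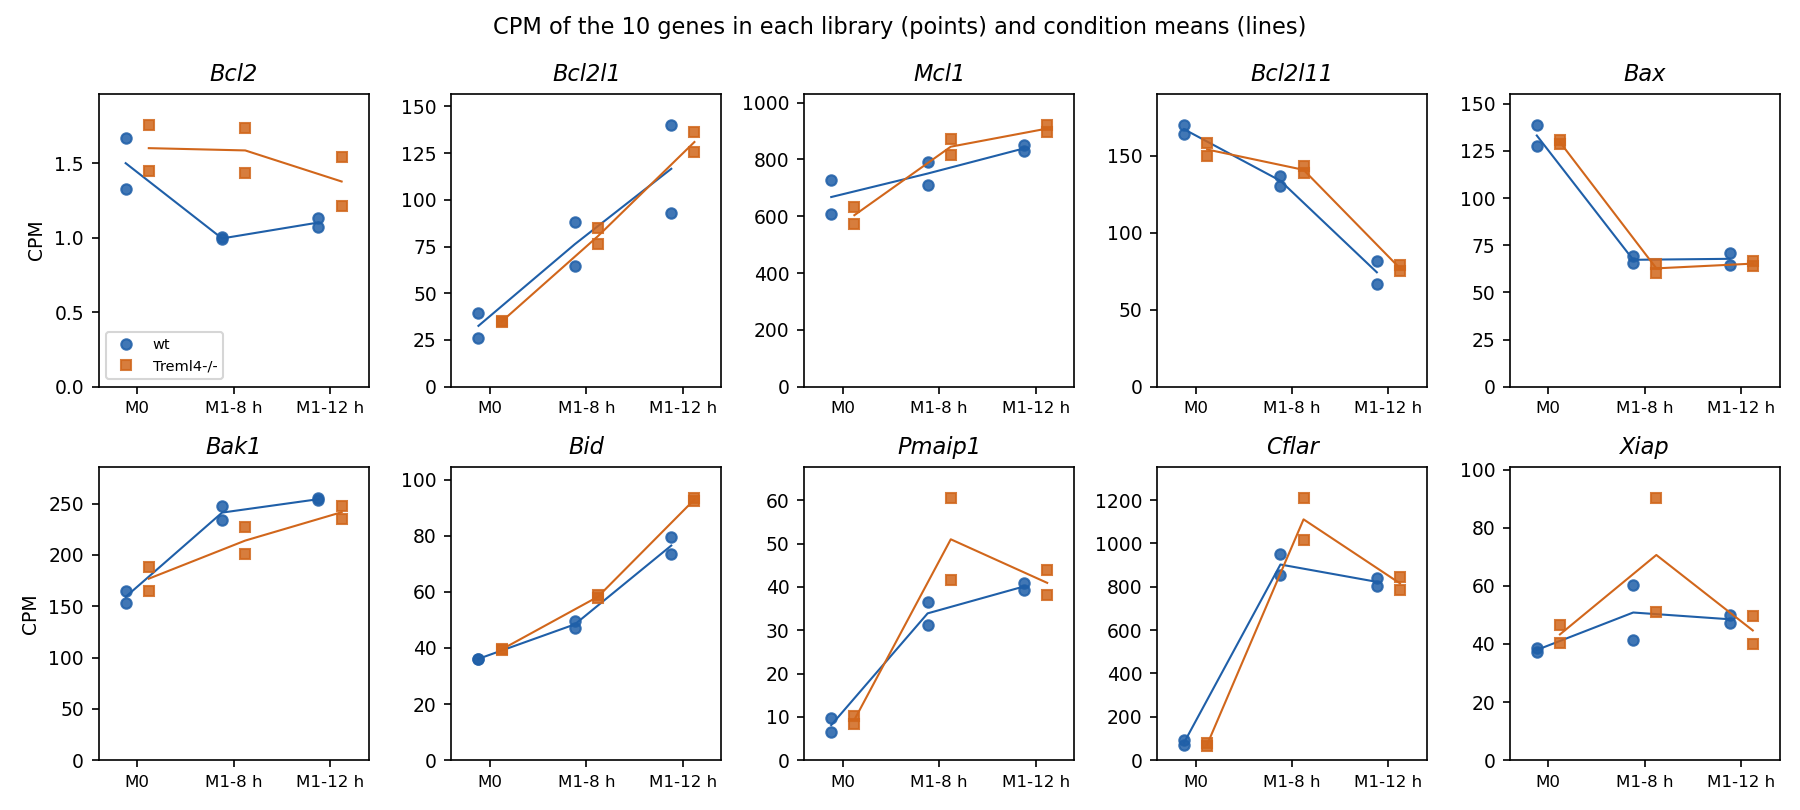
CPM (linear axis from 0, a scale of its own for each gene) in every library at M0, M1-8 h and M1-12 h; circles are wt, squares Treml4-/-, and lines join the means of 2 libraries. Cflar lay at 67.0 to 91.6 CPM at M0 and at 785 to 1208 CPM in all LPS libraries, while Bax lay at 128 to 139 CPM at M0 and at 60.4 to 70.9 CPM after LPS.

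Of the survival genes, Bcl2l1 had the steepest course. It encodes BCL-XL, which sequesters BAX, BAK and several BH3-only proteins. In wt it measured 25.8 and 39.3 CPM at M0, 88.1 and 64.4 CPM at M1-8 h and 140.1 and 93.1 CPM at M1-12 h. In Treml4-/- it measured 35.2 and 34.5, 84.9 and 76.3, and 125.6 and 136.2 CPM at the same times. The 3 times did not overlap, although the lowest M1-12 h library, in wt, stood close to the highest M1-8 h library. The rise was 2.30-fold at 8 h (log2 1.20 ± 0.15 SE, adjusted p = 1.44e-05, limma) and 3.59-fold at 12 h (log2 1.85 ± 0.15, adjusted p = 2.89e-07), or 1.98 and 2.67 on the log2 scale under median of ratios scaling. Its promoter bases are printed above.

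Mcl1 encodes a short-lived survival protein that myeloid cells are known to depend on. It measured 728 and 608 CPM in the wt M0 libraries and 574 and 634 CPM in the Treml4-/- M0 libraries. At M1-8 h it measured 792 and 709 CPM in wt and 874 and 816 CPM in Treml4-/-, and at M1-12 h 828 and 850 CPM in wt and 922 and 896 CPM in Treml4-/-. The M0 and M1-8 h ranges overlapped within wt and were apart within Treml4-/-. The change was 1.26-fold at 8 h (log2 0.33 ± 0.07, adjusted p = 0.0011) and 1.38-fold at 12 h (log2 0.46 ± 0.07, adjusted p = 7.58e-05), both under the 1.4-fold minimum, while median of ratios scaling gave 1.13 and 1.31 on the log2 scale, both called. Without wt M0 replicate 1 (0.53) or without Treml4-/- M0 replicate 2 (0.50), the 12 h change was called with library-size scaling too.

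Bcl2 itself, the founding survival gene, was barely transcribed. It measured 1.33 and 1.67 CPM in wt at M0, 0.989 and 1.00 CPM at M1-8 h and 1.07 and 1.13 CPM at M1-12 h, where 49 reads stood behind the lowest value. In Treml4-/- it measured 1.45 and 1.76, 1.44 and 1.74, and 1.54 and 1.22 CPM. The wt libraries lay below all Treml4-/- libraries at both LPS times and overlapped them at M0. The changes with LPS, -0.17 ± 0.09 at 8 h (adjusted p = 0.0882) and -0.19 ± 0.09 at 12 h (adjusted p = 0.0558), did not pass the test and took the opposite sign under median of ratios scaling, 0.28 and 0.29.

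The 2 effectors took different courses. Bax encodes the effector that resides largely in the cytosol until activated, and Bak1 the effector anchored in the mitochondrial membrane. Bax measured 128 and 139 CPM in wt and 131 and 128 CPM in Treml4-/- at M0, against 69.1 and 65.5 CPM in wt and 65.1 and 60.4 CPM in Treml4-/- at M1-8 h. At M1-12 h it measured 64.7 and 70.9 CPM in wt and 63.7 and 66.7 CPM in Treml4-/-. All 8 LPS libraries lay below all M0 libraries. Scaled to library size, Bax fell by 1.01 on the log2 scale at 8 h (SE 0.06, adjusted p = 1.54e-08) and by 0.97 at 12 h (SE 0.06, adjusted p = 1.94e-08), while under median of ratios scaling the changes were -0.21 and -0.13 and neither was called. Its library-size change was more negative than the median of all genes by 0.28 at 8 h and 0.22 at 12 h, and 37.9% and 41.5% of genes had a lower value than Bax.

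Bak1 measured 153 and 165 CPM in wt and 188 and 165 CPM in Treml4-/- at M0. It measured 248 and 234 CPM in wt and 227 and 200 CPM in Treml4-/- at M1-8 h, and 255 and 254 CPM in wt and 235 and 248 CPM in Treml4-/- at M1-12 h. All LPS libraries lay above all M0 libraries. The change was 1.35-fold at 8 h (log2 0.44 ± 0.07, adjusted p = 5.55e-05), under the minimum fold, and Bak1 rose 1.48-fold at 12 h (log2 0.56 ± 0.07, adjusted p = 5.89e-06). Under median of ratios scaling it rose by 1.23 and 1.41 on the log2 scale.

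The BH3-only genes took 3 different courses. Bcl2l11 encodes BIM, which binds all the survival proteins and can activate BAX and BAK. It measured 170 and 165 CPM in wt and 150 and 158 CPM in Treml4-/- at M0, 131 and 137 CPM in wt and 143 and 139 CPM in Treml4-/- at M1-8 h, and 66.7 and 82.0 CPM in wt and 75.0 and 78.8 CPM in Treml4-/- at M1-12 h. The 3 times did not overlap. Its change at 8 h was 0.856-fold (log2 -0.22 ± 0.07, adjusted p = 0.00893), not called, and took the opposite sign under median of ratios scaling, 0.57, where it was called. At 12 h it fell by 1.08 on the log2 scale (SE 0.07, adjusted p = 2.4e-08), against -0.24 under median of ratios scaling, not called.

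Bid encodes the BH3-only protein that caspase-8 cleaves to carry a death receptor signal to mitochondria. It measured 36.0 and 36.2 CPM in wt and 39.1 and 39.8 CPM in Treml4-/- at M0, 47.1 and 49.8 CPM in wt and 58.9 and 57.7 CPM in Treml4-/- at M1-8 h, and 79.7 and 73.3 CPM in wt and 92.5 and 93.3 CPM in Treml4-/- at M1-12 h. The 3 times did not overlap. At 8 h the change was 1.396-fold (log2 0.48 ± 0.06, adjusted p = 5.7e-06, limma), just short of the minimum fold (log2 0.4854). With a pseudocount of 0.1 CPM (0.491), the deposited values used directly (0.492) or voom (0.492), Bid was called higher at 8 h. Leaving out wt M1-8 h replicate 1, Treml4-/- M0 replicate 2 or Treml4-/- M1-8 h replicate 2 gave 0.501, 0.487 and 0.489. At 12 h Bid rose 2.20-fold (log2 1.14 ± 0.06, adjusted p = 2.53e-09, limma). Median of ratios scaling gave 1.26 and 1.97 on the log2 scale, both called. An exon of Bid overlaps the span of Bcl2l13, a mitochondrial BCL2-like gene on the opposite strand that fell with LPS. The exons of Bcl2l13 were not compared. The library kit kept strand, the setting used in counting was not given in the sources used here, and the part of this overlap in Bid's values was not tested.

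Pmaip1 encodes NOXA, which binds MCL1 and marks it for degradation. It measured 9.76 and 6.43 CPM in wt and 8.35 and 10.3 CPM in Treml4-/- at M0, 31.3 and 36.5 CPM in wt and 41.6 and 60.4 CPM in Treml4-/- at M1-8 h, and 40.8 and 39.4 CPM in wt and 43.8 and 38.1 CPM in Treml4-/- at M1-12 h. Every LPS library stood above every M0 library. Pmaip1 rose 4.40-fold at 8 h (log2 2.14 ± 0.14, adjusted p = 3.66e-08) and 4.33-fold at 12 h (log2 2.11 ± 0.14, adjusted p = 3.85e-08), and by 2.86 and 2.89 on the log2 scale under median of ratios scaling.

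Cflar had the largest LPS change of the 10 genes. Its products, the FLIP proteins, pair with caspase-8 at death receptors and limit its activation. It measured 91.6 and 69.5 CPM in wt and 67.0 and 77.0 CPM in Treml4-/- at M0, 856 and 950 CPM in wt and 1014 and 1208 CPM in Treml4-/- at M1-8 h, and 805 and 840 CPM in wt and 847 and 785 CPM in Treml4-/- at M1-12 h. Cflar rose 13.0-fold at 8 h (log2 3.70 ± 0.09, adjusted p = 1.49e-11) and 10.7-fold at 12 h (log2 3.42 ± 0.09, adjusted p = 2.97e-11). Its change exceeded that of 98% of all genes tested at 8 h and 97.8% at 12 h, and was 4.50 and 4.26 on the log2 scale under median of ratios scaling. Its promoter bases are printed above.

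Xiap, an X-linked inhibitor of caspases, had the noisiest values. It measured 38.6 and 37.3 CPM in wt and 40.2 and 46.4 CPM in Treml4-/- at M0, 41.5 and 60.1 CPM in wt and 51.2 and 90.1 CPM in Treml4-/- at M1-8 h, and 49.9 and 47.1 CPM in wt and 49.5 and 39.9 CPM in Treml4-/- at M1-12 h. The highest value, 4925 reads against 2993 in its partner, came from the library with 1.11% mitochondrial reads. The 8 h call (1.43-fold, log2 0.52 ± 0.16, adjusted p = 0.0114) was lost without that library (0.31), without wt M1-8 h replicate 2 (0.38) and without Treml4-/- M0 replicate 1 (0.46). The 12 h value of 0.19 ± 0.16 (adjusted p = 0.284) was not called. Under median of ratios scaling the values were 1.30 and 1.02, both called.

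**Figure D2:**
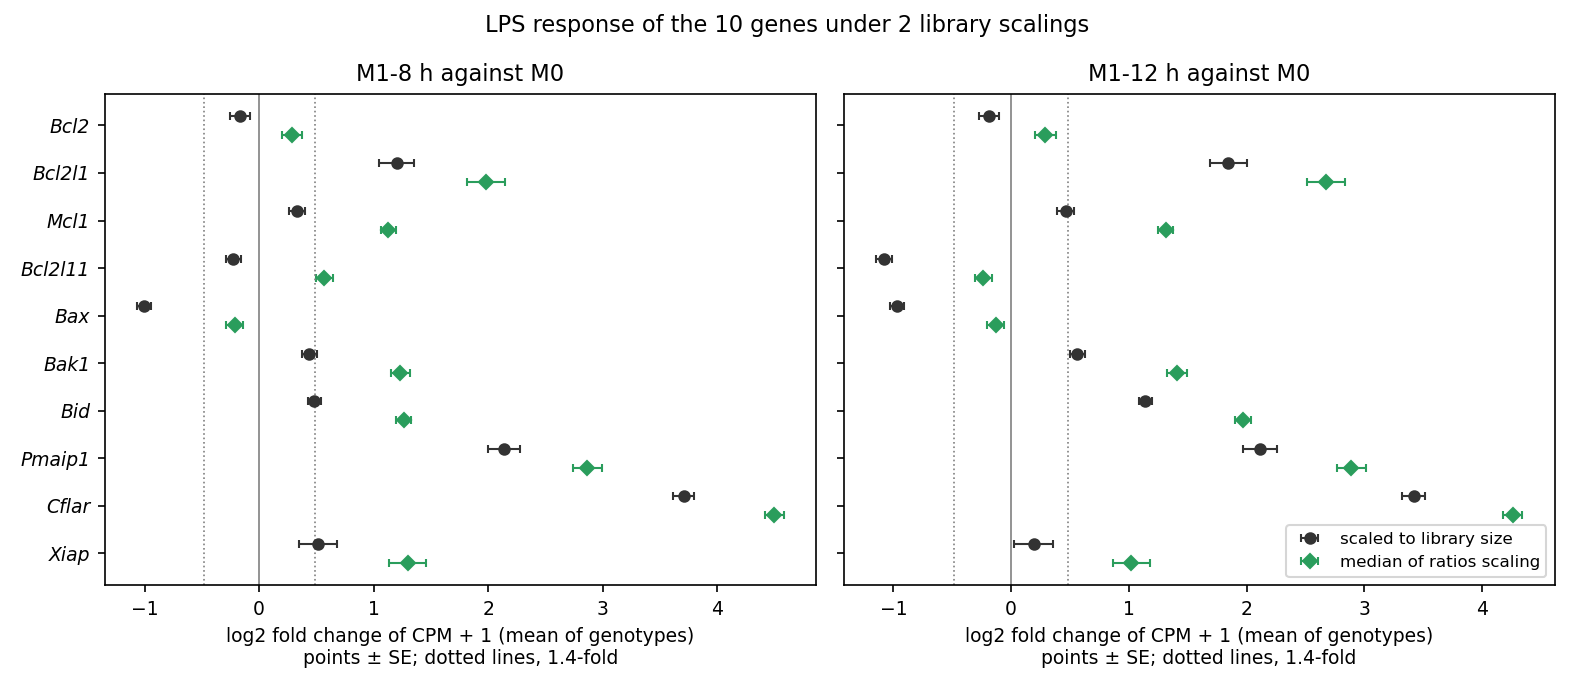
Log2 fold change of CPM + 1 against M0 (x axis, points with SE, mean of both genotypes) for each gene at M1-8 h and M1-12 h; black circles are scaled to library size, green diamonds by the median of ratios, and dotted lines mark 1.4-fold. Cflar, Pmaip1 and Bcl2l1 lay to the right under both scalings at both times, whereas Bax moved from -1.01 to -0.21 at 8 h and Bcl2l11 from -0.22 to 0.57.

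Between 8 h and 12 h, 3 of the 10 genes were called changed, where 32.1% of all genes were called, 13.5% higher and 18.7% lower. Bcl2l1 rose a further 1.56-fold (log2 0.64 ± 0.15, adjusted p = 0.00386), Bid rose 1.58-fold (log2 0.66 ± 0.06, adjusted p = 2.38e-06), and Bcl2l11 fell by 0.86 on the log2 scale (SE 0.07, adjusted p = 1.56e-06). The same 3 genes were called under median of ratios scaling (33.4% of all genes), which gave 0.70 for Bcl2l1, 0.71 for Bid and -0.81 for Bcl2l11. The value of Bcl2l11 was below that of all but 7.53% of genes. Cflar changed by -0.29 ± 0.09 (adjusted p = 0.022), under the minimum fold, and the other 6 genes had adjusted p-values from 0.113 to 0.896.

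Because the size of the LPS changes moved with scaling, ratios of reads between 2 genes within a library, which no scaling alters, were also computed for 4 pairs of known partners, chosen with the results above in view. All 4 ratios differed between M0 and both LPS times without overlap of the 4 libraries at each time. How often other pairs of genes do so was not computed. A different measure is known for single genes scaled to library size. Of these, 89.7% had an unadjusted p under 0.05 against M0 at 8 h and 89.7% at 12 h (limma). That share is not a background for the ratios. The log2 ratio of Bax to Bak1 was -0.35 ± 0.13 (SD, n = 4) before LPS, -1.81 ± 0.05 after 8 h and -1.90 ± 0.06 after 12 h, a shift from M0 of -1.45 at 8 h and -1.55 at 12 h. The ratio of Bcl2l11 to Mcl1 went in steps from -1.98 ± 0.09 at M0 to -2.53 ± 0.11 and then to -3.53 ± 0.12. NOXA's gene moved the opposite way against Mcl1, from -6.21 ± 0.26 at M0 to -4.27 ± 0.38 at M1-8 h and -4.43 ± 0.09 at M1-12 h. The ratio of Cflar to Casp8, the gene of the protease that FLIP controls, went from 0.15 ± 0.13 at M0 to 2.34 ± 0.17 and 2.47 ± 0.06, although Casp8 itself rose from 60.0 to 76.4 CPM at M0 to 189 to 207 CPM at M1-8 h. Each of the 8 shifts had the same sign within wt and within Treml4-/-, and none was tested, as the pairs were chosen with these values known.

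Levels were also divided by the length of all annotated exons of a gene (GENCODE M21 gene models), whichever transcripts were expressed. Per kilobase of this exon sequence, Mcl1 led at M0 with 186 ± 19.3 CPM per kb (SD, n = 4 libraries of both genotypes). Bax followed with 83.4 ± 3.25, Bak1 with 69.8 ± 6.11, Bcl2l11 with 20.0 ± 1.08 and Bid with 10.6 ± 0.55. Bcl2l1 at 7.34 and Cflar at 6.02 CPM per kb overlapped, and Xiap at 4.29, Pmaip1 at 3.19 and Bcl2 at 0.169 CPM per kb came last. At M1-8 h, Bak1 at 94.5 and Cflar at 79.5 CPM per kb overlapped in the second place behind Mcl1 at 233, Bax had dropped to 41.2, and Bcl2l11, Bcl2l1, Pmaip1 and Bid lay together between 15.0 and 17.1 CPM per kb. At M1-12 h the order was Mcl1 256, Bak1 103, Cflar 64.7 and Bax 42.2 CPM per kb, then Bcl2l1 27.0 and Bid 23.9, which overlapped, Pmaip1 14.8, Bcl2l11 9.42, Xiap 4.92 and Bcl2 0.135 CPM per kb. Neighbours not said to overlap had libraries that were apart. Per kilobase, M0 libraries held more Bax than Bak1 and LPS libraries more Bak1 than Bax. Before division by length, every M0 library held more Bak1 reads than Bax reads (mean log2 ratio -0.35). The M0 order of these genes thus rests on the exon lengths used, 1576 bases for Bax and 2407 for Bak1.

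Loss of Treml4 left the 10 genes without a called difference. None was called between wt and Treml4-/- at M0, M1-8 h or M1-12 h by limma, where 0.0993%, 0.091% and 0.132% of all genes were called, and none was called after voom on the recovered reads. The counts over all genes, 12, 11 and 16 at these times, moved with single libraries. They were far higher without wt M0 replicate 1, Treml4-/- M1-8 h replicate 1 or wt M1-12 h replicate 1, each at its own time. Each of these fits left 1 library in a condition, without a spread of its own. At M1-8 h that was Treml4-/- replicate 2, the library with 1.11% mitochondrial reads. At an unadjusted p under 0.05 there were 0, 4 and 1 of the 10 genes, against 3.35%, 21% and 7.55% of all genes. Differences are given as wt minus Treml4-/- throughout. At M0 they ran from -0.20 to 0.15 on the log2 scale, at M1-8 h from -0.56 to 0.17 and at M1-12 h from -0.28 to 0.12.

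At M1-8 h, the 4 genes with an unadjusted p under 0.05 were all lower in wt. Pmaip1 differed by -0.56 (95% interval -0.996 to -0.11, adjusted p = 0.18), Bcl2 by -0.37 (-0.64 to -0.10, adjusted p = 0.171), Cflar by -0.30 (-0.59 to -0.00032, adjusted p = 0.237) and Bid by -0.26 (-0.44 to -0.09, adjusted p = 0.162). Pmaip1 and Bcl2 also had an unadjusted p under 0.05 with median of ratios scaling, at -0.43 and -0.32. Bid and Cflar did not, at -0.13 and -0.17, and Bax and Bak1 did, at 0.23 and 0.30. Under that scaling 23.8% of all genes did. Xiap differed by -0.44 (-0.95 to 0.08), and this became a call of -0.84 (adjusted p = 0.0437) without Treml4-/- M1-8 h replicate 1, which leaves the high library alone on that side. The remaining genes differed by -0.09 (Bcl2l1), -0.17 (Mcl1), -0.07 (Bcl2l11), 0.10 (Bax) and 0.17 (Bak1), with Bcl2l1 and Bcl2l11 taking the opposite sign under median of ratios scaling, 0.04 and 0.06.

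The 2 wt and 2 Treml4-/- libraries did not overlap for 8 of the 10 genes at M1-8 h, with wt lower for Bcl2, Mcl1, Bcl2l11, Bid, Pmaip1 and Cflar and higher for Bax and Bak1. They did not overlap for 51.9% of all genes at that time either, with wt lower for 33.9% and higher for 18%. At M0 the libraries were apart for 4 of the 10 genes (28.8% of all genes) and at M1-12 h for 4 (43.1%). With 2 libraries against 2, an exact permutation test cannot give a p below 0.333. Bid was lower in wt at all 3 times without overlap, as were 2.53% of all genes. Its 12 h difference of -0.28 (-0.45 to -0.10, adjusted p = 0.31, limma) was the only one of the 10 at that time with an unadjusted p under 0.05. Under median of ratios scaling it was -0.19, and 0 of the 10 had an unadjusted p under 0.05 at that time, against 7.55% of all genes.

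**Figure D3:**
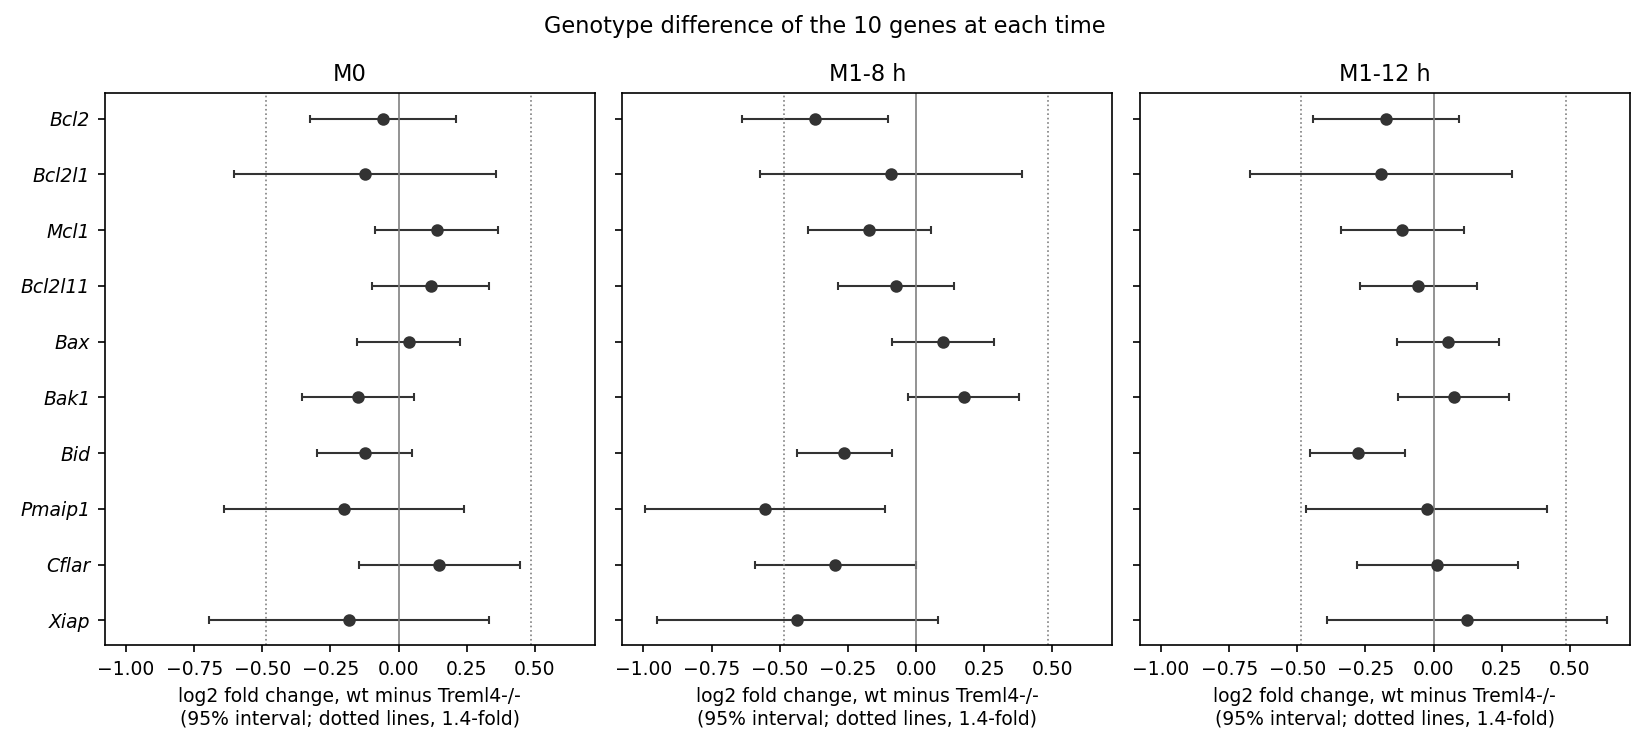
Log2 fold change of wt minus Treml4-/- (x axis, CPM + 1 scaled to library size, points with unadjusted 95% intervals) for each gene at M0, M1-8 h and M1-12 h; dotted lines mark 1.4-fold. No gene was called at any time, and the intervals of Bcl2, Bid, Pmaip1 and Cflar at M1-8 h and of Bid at M1-12 h lay below 0.

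Whether LPS acted differently in the genotypes was tested directly. None of the 10 genes was called for the difference of LPS effects at 8 h or 12 h (0.00827% of all genes were called at each time). At 8 h, 2 of the 10 had an unadjusted p under 0.05, against 6.67% of all genes. The wt effect minus the Treml4-/- effect was 0.32 for Bak1 (95% interval 0.04 to 0.61, adjusted p = 0.729, limma) and -0.45 for Cflar (-0.86 to -0.03, adjusted p = 0.729, limma). With median of ratios scaling 1 of the 10 remained, against 6.95% of all genes. This was Bak1 at 0.42, while Cflar was at -0.35 and no longer under 0.05. At 12 h none did, against 3.82% of all genes, and the values ran from -0.26 to 0.31. Intervals over the 10 genes reached from -0.98 to 0.71 at 8 h and from -0.75 to 1.03 at 12 h. They included differences of 1.4-fold for all but Bax and Bid at 8 h, and for all but Bcl2l11, Bax and Bid at 12 h.

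The 10 genes sit among other apoptosis genes, and 48 of these, in 5 lists, were examined in the same fit. Of the 48, 42 were tested, and Bcl2a1c, Bcl2l10, Bcl2l15, Bok, Bik and Hrk were too low. With LPS, 32 of the 42 were called at 8 h (14 higher, 18 lower) and 31 at 12 h (14 higher, 17 lower), and 21 changed between 8 h and 12 h (7 higher, 14 lower). The shares of all genes called were 76.9% at 8 h (17.1% higher, 59.8% lower), 76.5% at 12 h (16.3% higher, 60.3% lower) and 32.1% between 8 h and 12 h (13.5% higher, 18.7% lower). None of the 42 was called between genotypes at any time, with 2, 7 and 3 at an unadjusted p under 0.05 at M0, M1-8 h and M1-12 h, against 3.35%, 21% and 7.55% of all genes.

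In the rest of the BCL2 family, 9 of 10 genes were called at 8 h (76.9% of all genes), with a list median of -0.62 against -0.72 over all genes tested. Higher were the survival genes Bcl2a1a, Bcl2a1b and Bcl2a1d and the family member Bcl2l14, and lower were the BH3-only genes Bmf, Bad and Bbc3 with Bcl2l12 and Bcl2l13. Of these, Bcl2a1a, Bcl2l14, Bcl2l12, Bad and Bbc3 are named after their values were seen. Bmf, whose product senses cytoskeletal stress, went from 133 to 140 CPM at M0 to 0.424 to 1.33 CPM at M1-8 h and 1.06 to 1.51 CPM at M1-12 h. It fell by 6.24 on the log2 scale at 8 h and by 5.87 at 12 h, and had -5.58 and -5.15 under median of ratios scaling. Bcl2a1d rose by 6.07 (1.14 to 2.16 CPM at M0 and 141 to 201 CPM at M1-8 h) and Bcl2a1b by 4.80, or 6.61 and 5.25 under median of ratios scaling. These paralogs are nearly identical and share reads, so their single values are uncertain, but the 4 copies together went from 2.44 ± 0.56 CPM (SD, n = 4) at M0 to 240 ± 35.1 at M1-8 h and 67.1 ± 13.2 CPM at M1-12 h. Bcl2l13 fell by 1.38 at 8 h and 1.52 at 12 h, and by 0.60 and 0.70 under median of ratios scaling. At 12 h, 8 of the 10 were called, 4 in each direction (16.3% of all genes higher, 60.3% lower), and under median of ratios scaling 7 were called at 8 h (4 higher, 3 lower), where 63% of all genes were, 32% higher.

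Of 9 genes of the caspases and the apoptosome, 8 were called at 8 h, 3 higher and 5 lower (17.1% and 59.8% of all genes), with a median of -0.53 against -0.72 over all genes. Beside those described here, Casp8 was higher and Casp6, Aifm1 and Dffb lower, named after their values were seen. Apaf1, the scaffold of the apoptosome, rose by 2.16 at 8 h and 1.60 at 12 h, and Cycs, the gene of cytochrome c, by 1.71 and 1.498. Apaf1 had 2.95 and 2.43 and Cycs 2.48 and 2.33 under median of ratios scaling, all called. Casp9, the protease that the apoptosome activates, measured 63.5 to 67.4 CPM at M0 and 32.8 to 36.5 CPM at M1-8 h, a change of -0.92 at 8 h and -0.59 at 12 h under library-size scaling, which was -0.13 and 0.24 under median of ratios scaling and no longer called. Dffa, the inhibitor and chaperone of the caspase-activated DNase, fell by 1.39 and 1.93, and by 0.63 and 1.13 under median of ratios scaling. Under that scaling 5 of the 9 were called at 8 h, 4 of them higher (63% of all genes called, 32% higher). At 12 h with library-size scaling, 8 were called, again 3 higher and 5 lower (16.3% and 60.3% of all genes).

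Of 11 inhibitor of apoptosis genes and their antagonists, 8 were called at 8 h, 4 in each direction (17.1% of all genes higher, 59.8% lower), with a median of -0.39 against -0.72 over all genes. Beside those described here, Birc2 and Birc6 were higher and Naip2 and Naip5 lower, named after their values were seen. Birc3, which encodes the ubiquitin ligase cIAP2, rose by 1.51 at 8 h and 0.69 at 12 h, and by 2.31 and 1.53 under median of ratios scaling. Xaf1, an interferon-induced gene whose product binds XIAP, rose by 3.73 and 3.92, from 12.4 to 13.8 CPM at M0 to 176 to 200 CPM at M1-8 h, while Xiap had 0.52 and 0.19. Birc5, which encodes survivin and is transcribed in dividing cells, fell by 4.21 and 5.86, from 59.0 to 110.2 CPM at M0 to 0.480 to 0.590 CPM at M1-12 h. With the other scaling, by the median of ratios, Xaf1 had 4.49 and 4.73 and Birc5 -3.48 and -5.20, all called, and Xiap 1.30 and 1.02. Htra2, a mitochondrial protease that antagonises XIAP once released, changed by -1.28 and -0.84, and by -0.50 and -0.01 under median of ratios scaling. At 12 h, 6 were called, 3 in each direction (16.3% of all genes higher, 60.3% lower). Under median of ratios scaling 6 were called at 8 h (4 higher, 2 lower), where 63% of all genes were, 32% higher. At 12 h that scaling gave 9 called (8 higher, 1 lower), where 65.9% of all genes were, 33.5% higher.

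Of 6 genes of death receptor signalling, 4 were called at 8 h, 2 in each direction (17.1% of all genes higher, 59.8% lower), with a median of -0.04 against -0.72 over all genes. The receptor genes Fas and Tnfrsf1a rose, by 3.20 and 1.13 at 8 h and by 2.55 and 0.52 at 12 h. Fas had 3.91 and 3.32 and Tnfrsf1a 1.93 and 1.37 under median of ratios scaling, all called. The adaptor gene Fadd fell by 1.68 and 1.19 under library-size scaling, and by 0.96 and 0.42 under median of ratios scaling, where the second value was not called. Tradd, the adaptor of the TNF receptor, had -0.72 and -0.57, against 0.05 and 0.25 under median of ratios scaling, neither called. At 12 h the same 4 of 6 were called (76.5% of all genes), and under median of ratios scaling 4 were called at 8 h (3 higher, 1 lower), where 63% of all genes were, 32% higher.

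Of 6 regulators of the family, 3 were called at 8 h, 1 higher and 2 lower (17.1% and 59.8% of all genes), with a median of -0.17 against -0.72 over all genes. Trp53, whose product activates Bax, Bbc3 and Pmaip1, fell by 1.46 at 8 h and 1.68 at 12 h, and by 0.68 and 0.85 under median of ratios scaling. Foxo3, whose product can activate Bcl2l11, measured 79.6 to 95.0 CPM at M0, 17.9 to 18.8 CPM at M1-8 h and 54.2 to 56.4 CPM at M1-12 h. It changed by -2.19 at 8 h and -0.65 at 12 h, and by -1.41 and 0.19 under median of ratios scaling, the last not called. Usp9x, which encodes a deubiquitinase that stabilises MCL1, rose by 1.24 at 8 h and had 0.14 at 12 h (adjusted p = 0.331, limma). It had 2.03 under median of ratios scaling at 8 h and 0.98 at 12 h (adjusted p = 1.91e-05, limma), both called. At 12 h, 5 of the 6 were called, 2 higher and 3 lower (16.3% and 60.3% of all genes), and under median of ratios scaling all 6 were called at 8 h, 4 higher and 2 lower (63% of all genes called, 32% higher).

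**Figure D4:**
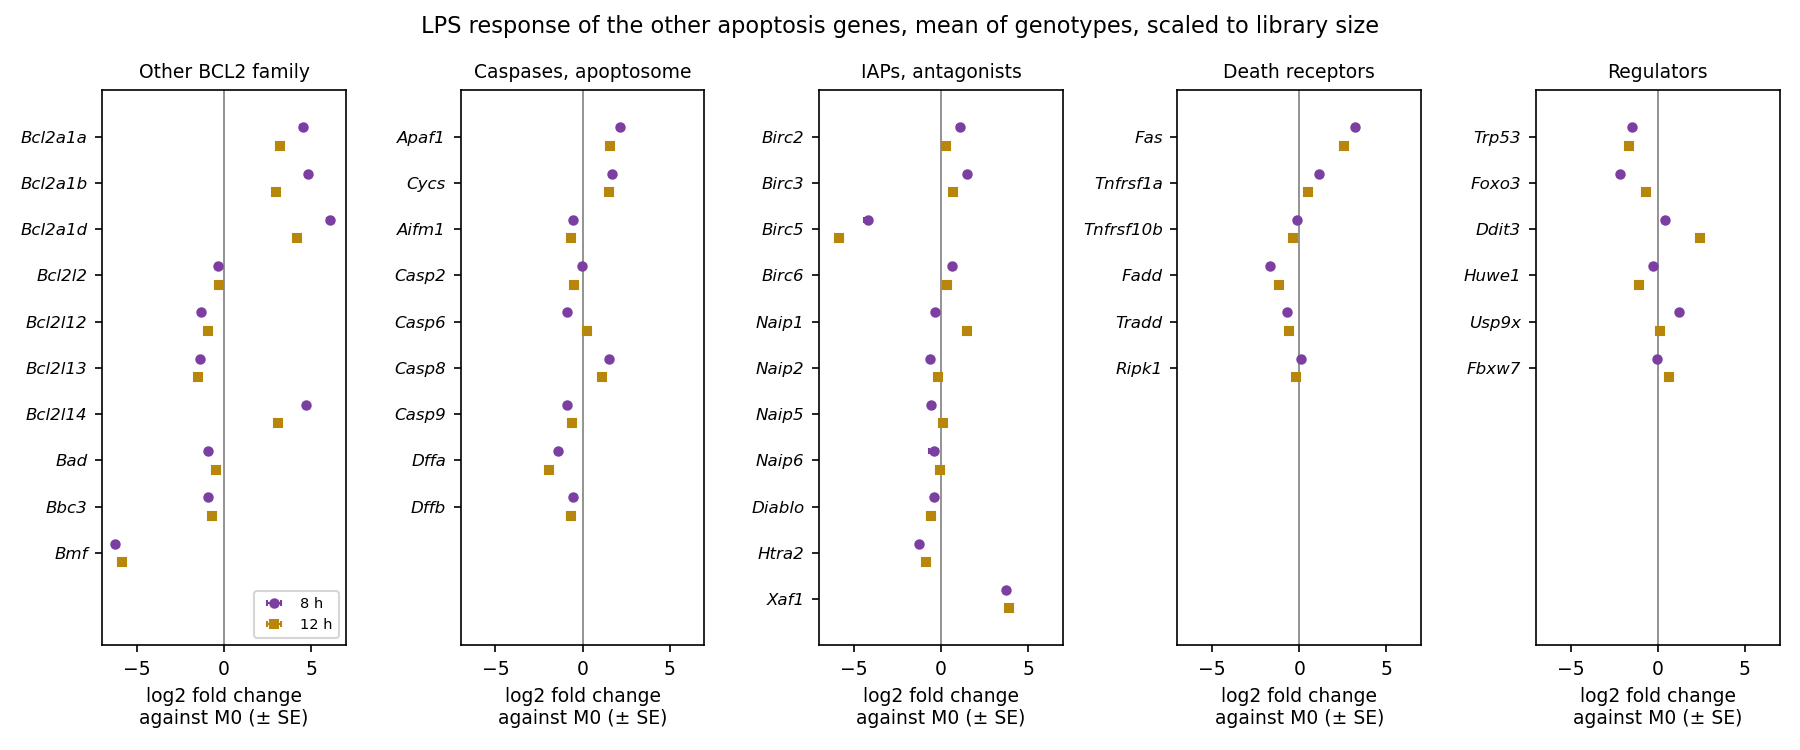
Log2 fold change of CPM + 1 against M0 (x axis, mean of both genotypes, scaled to library size, points with SE) of the 42 tested genes of the 5 lists; circles are 8 h, squares 12 h. The widest changes were those of the Bcl2a1 copies, Bcl2l14, Xaf1 and Fas to the right and of Bmf and Birc5 to the left.

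As a description, the gene with the most similar profile was found for each of the 10 by Pearson correlation of log2(CPM + 1) over the 12 libraries, which share the LPS time course, its scaling and their depth. Pmaip1 was most like Morc3 (r = 0.999), Cflar most like Trim30a (0.999) and Bax most like Ddx28 (0.998). Bcl2l11 was most like Atp9b (0.991), Bid most like Pde5a (0.991) and Bcl2l1 most like Gm13549 (0.986). Bak1 was most like Uba1 (0.98), Mcl1 most like Gm8394 (0.974) and Xiap most like Stag2 (0.964). Bcl2, the lowest of the 10, had the weakest best match, Tlr4 at 0.888.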

How the data were processed

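RNA of 12 BMDM cultures was sequenced as stranded poly(A) libraries (paired-end, HiSeq2500). Per the study's methods and the submitters' processing notes, the authors aligned reads with STAR (build mm10) and counted them with Subread in a workflow that includes DESeq2, edgeR and limma. The annotation and the strand setting of counting were not given in the sources used here. The values deposited by the authors are log2 CPM, scaled to library size with a prior count of 0.25. Whole reads were recovered for 100% of values (tolerance 0.0001), giving 48008751 to 58500792 reads per library. CPM was taken back from the deposited log2 values, genes that 2 or more libraries held at 1 CPM or above were kept (12086), and log2(CPM + 1) was tested with limma 3.58.1 (R 4.3.3, trended prior variance) with 1 mean for each of 6 conditions, all 12 libraries and Benjamini-Hochberg adjustment over all genes tested. A called gene had adjusted p under 0.05 and at least 1.4-fold change. The scripts were tested on simulated data. The members and lists were chosen with earlier results of these data known. From each list, the 2 called genes with the largest change in each direction at 8 h were named. Alternatives were a pseudocount of 0.1 CPM, the deposited values used directly, no filter, median of ratios scaling, blocks, voom on the reads, fits of the compared conditions only, no minimum fold and leaving out each library. Gene models came from GENCODE M21 and promoters from RefSeq. Some genes of the caspase list are not reported here and are in no count of the lists.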

Additional observations from a re-analysis of the deposited data

How the results depend on the processing

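Scaling and the minimum fold moved the counts of LPS calls most. The call of Bid at 8 h also moved with the pseudocount, the deposited values used directly and voom. At 8 h, 5 of the 10 genes were called as a mean of genotypes and 5 within wt. These became 8 and 8 under median of ratios scaling and 9 and 8 with no minimum fold. Of all genes, 76.9% and 76.9% were called in the main fit, and 63% and 62.2% under median of ratios scaling. With library-size scaling, 89.7% and 86.2% of all genes had an unadjusted p under 0.05 (limma). Signs were compared between settings for part of the results, mainly the 10 genes with LPS and at M1-8 h and the named list genes. Among these, the sign turned under median of ratios scaling for Bcl2 (0.28 at 8 h, 0.29 at 12 h, 0.0079 from 8 h to 12 h), Bcl2l11 (0.57 at 8 h) and Pmaip1 (0.0255 from 8 h to 12 h). It also turned for Bcl2l1 and Bcl2l11 between genotypes at M1-8 h (0.0354 and 0.0556), Casp9 at 12 h (0.24), Tradd at 8 h and 12 h (0.0523 and 0.25) and Foxo3 at 12 h (0.19). Results outside this part turned too, such as Huwe1 at 8 h (from -0.30 to 0.50). The cause was not tested. With no filter on low values, the calls of Xiap at 8 h (adjusted p = 0.121) and of Bcl2l1 from 8 h to 12 h (adjusted p = 0.0715, limma) were lost, as 43280 genes were then adjusted together.

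Leaving out each library in turn gave 4 to 6 of the 10 genes called at 8 h, 7 to 8 at 12 h, 3 to 4 between these times and 0 to 1 between genotypes at M1-8 h, where the call was that of Xiap. With all libraries, 76.9%, 76.5% and 32.1% of all genes were called in these LPS comparisons, and 0.091% between genotypes at M1-8 h. Without Treml4-/- M1-8 h replicate 2, Xiap was not called at 8 h. Values near 0 changed sign: Bcl2 from 8 h to 12 h ran from -0.0731 to 0.026, Pmaip1 from -0.157 to 0.108, and Bcl2l1 between genotypes at M1-8 h from -0.317 to 0.13. The genotype calls among all genes, 12, 11 and 16 at M0, M1-8 h and M1-12 h, moved with single libraries. They were far higher without wt M0 replicate 1, Treml4-/- M1-8 h replicate 1 or wt M1-12 h replicate 1, each at its own time. Each of these fits left 1 library in a condition. For the ratios of partner genes, leaving out libraries was added after seeing the data and turned no sign.

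Fits of the compared conditions only gave fewer genotype calls among all genes, 7, 5 and 8 at M0, M1-8 h and M1-12 h against 12, 11 and 16, and voom gave 10 at M1-12 h. With the replicate number as a replicate block, 5, 7 and 3 of the 10 genes were called at 8 h, at 12 h and between them. The main fit called 76.9%, 76.5% and 32.1% of all genes in these LPS comparisons. Between genotypes 0 of the 10 were called at each time with the block, so that no call among the 10 changed. This block also ties the numbers of wt to those of Treml4-/-. Titles give the times of a genotype the same biological replicate number, which would pair them, but name no animal. The main fit did not use this pairing. A block of replicate number within genotype, fitted for the LPS comparisons, left sign and call the same in the 68 changes compared. Deviations of same-numbered libraries correlated at -0.272 to 0.462 within a genotype and at -0.264 to 0.297 within a time.

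Bcl2, with as few as 49 reads in a library, has the largest counting error of the 10 genes, and 2 libraries per condition limit the genotype comparisons of all of them.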
